A study of Mus musculus with 2 samples.

Results

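Translation initiation and elongation factors were examined here as 71 nuclear genes of a mouse erythroid cell line. Members were the protein-coding genes whose GENCODE M21 symbol starts with Eif, Eef or Pabpc, without the eIF2 kinases (Eif2ak), and they were grouped by the factor or complex they belong to. M21 holds 72 such genes, and Eef1akmt4 was not analysed here because its identifier matched no entry. The members are 51 Eif, 13 Eef and 7 Pabpc genes of the 21461 nuclear protein-coding genes among 69691 table entries.

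The data are total RNA-seq of G1E-ER4 cells, an immortalized line. G1E cells derive from Gata1-null mouse embryonic stem cells, and the ER4 subline carries GATA1 fused to the ligand-binding domain of the oestrogen receptor, so that oestradiol switches GATA1 on and starts red cell maturation. The labels name the strain as C57BL/6J and the sex as male. The only group was treated with 10 nM 17β-estradiol for 24 h and has 2 biological replicates. There is no untreated group, so nothing below is a response to treatment, and without a contrast nothing was tested. The line is a single subline with a fusion protein in place of native GATA1.

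Initiation factors bring the initiator tRNA, the small ribosomal subunit and the mRNA together. eIF2 carries the initiator tRNA as a GTP-bound ternary complex and is recharged by eIF2B, eIF3 is the large scaffold on the small subunit, and eIF4F (cap-binding eIF4E, helicase eIF4A and scaffold eIF4G) recruits capped mRNA, with poly(A)-binding protein joining the tail to the cap. eEF1A then delivers aminoacyl-tRNAs, eEF1B recharges eEF1A, and eEF2 moves the ribosome along. Erythroid precursors are known for the bulk translation of globin mRNAs, which is coupled to haem supply through phosphorylation of eIF2.

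The expected counts, which are the authors' estimates of reads per gene, came to 50277914 (replicate 1) and 47478888 (replicate 2). The nuclear protein-coding genes took 14373925 and 13901316 of them and the members 546099 and 532595. TPM (a transcript's share of the library, corrected for length and scaled to a fixed total) is lowered for every mRNA in these libraries, because nuclear protein-coding genes hold only 22.7% and 22.9% of it. Of 10 erythroid marker genes, 10 were detected (at least 1 TPM in each replicate), with summed levels of 1573 and 1596 TPM. The 10 include Gata1, which this line carries as the fusion, so its detection does not inform on cell type. Among markers of other blood cells, 4 of 5 megakaryocyte genes (summed 31.1 and 23.4 TPM) and 2 of 3 mast cell genes (29.6 and 31.0 TPM) were detected, and 0 of 5 granulocyte and macrophage, 0 of 4 lymphoid and 0 of 3 stromal genes were. Their part in the members' levels was not tested. In bulk RNA, fewer cells of a type and less RNA per cell cannot be told apart.

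Most of the translation machinery was present. Of 71 members, 61 were detected (85.9%), against 40.2% of all nuclear protein-coding genes. By family these were 48 of 51 Eif, 11 of 13 Eef and 2 of 7 Pabpc genes. The detected members had a median level of 50.7 TPM, against 9.76 TPM over the 8620 detected nuclear protein-coding genes, and 48 of the 61 lay above that value. There were 6 members among the 100 highest nuclear protein-coding genes and 23 among the 500 highest. Together the members held 4.64% and 4.81% of all nuclear protein-coding TPM (mean 4.72% ± 0.123, SD, n = 2; all later ± values are SDs of the same 2 replicates). The levels were very uneven. Eef1a1 alone gave 47.4% ± 0.115 of the members' summed TPM and Pabpc1 gave 11.4% ± 0.831. By symbol, the Eef genes summed to 5939 ± 152 TPM, the Eif genes to 3518 ± 62.6 TPM and the Pabpc genes to 1297 ± 129 TPM.

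**Figure D1:**
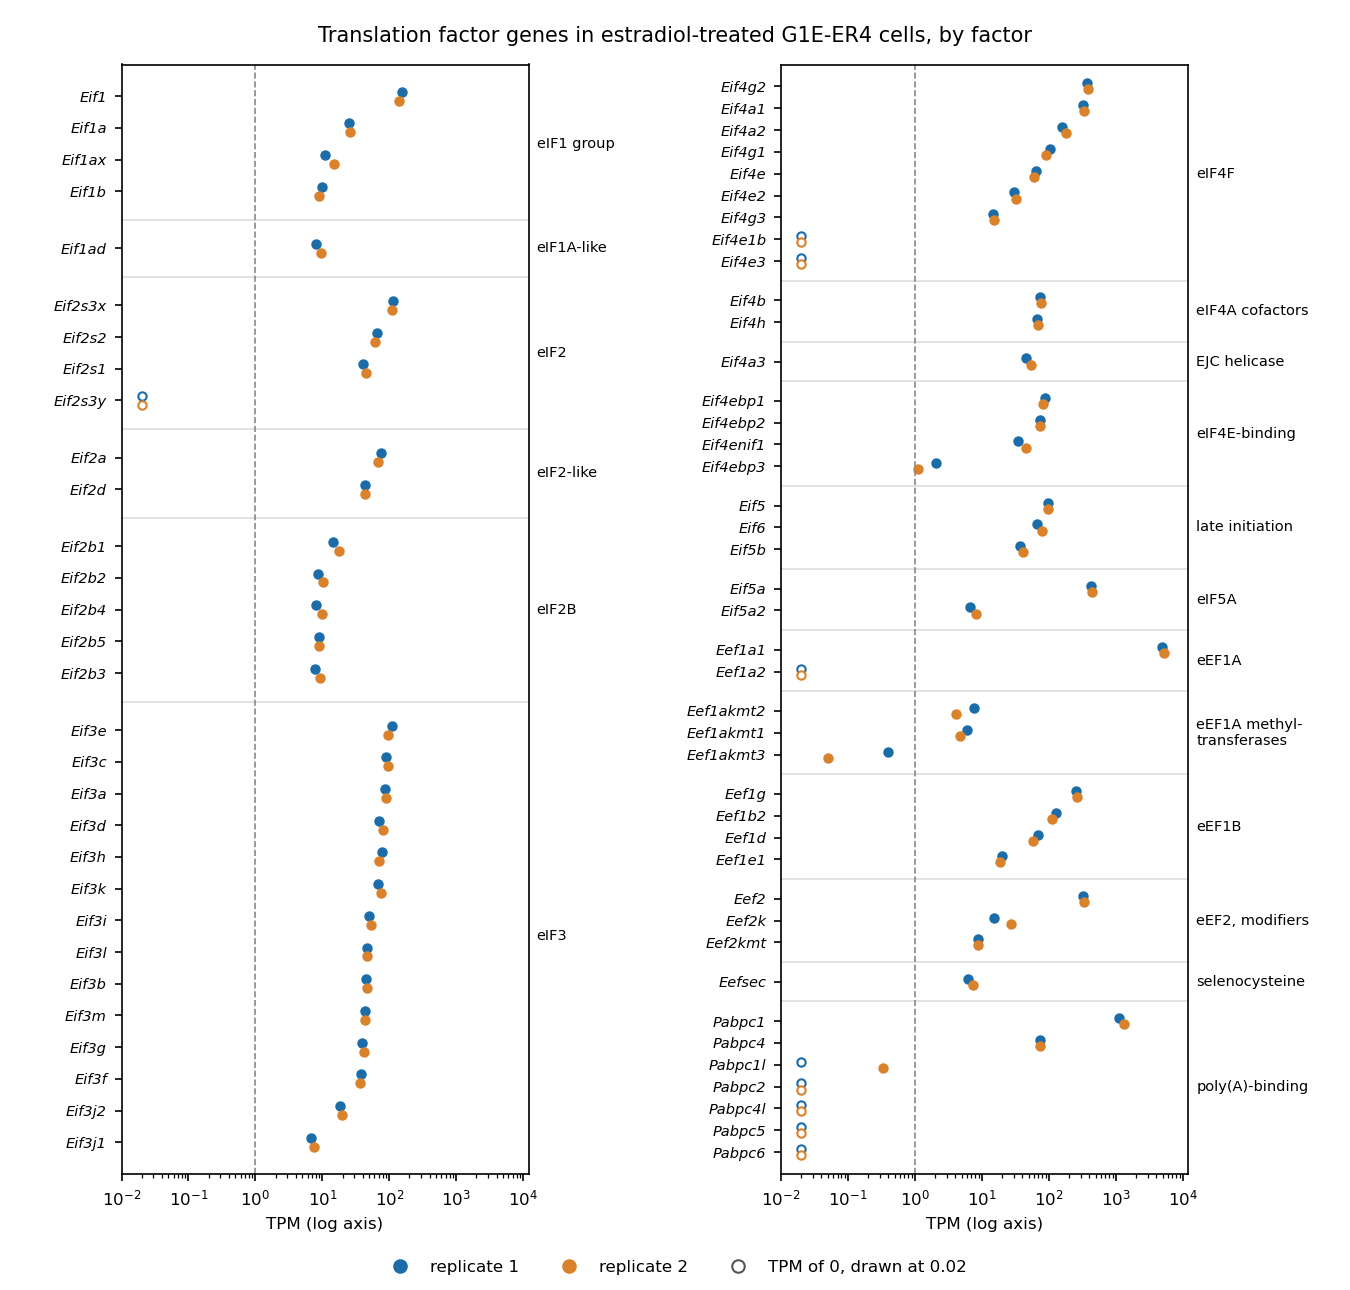
Level of each of the 71 members in TPM on a log axis, grouped by factor; each point is 1 replicate, open points at the left edge stand for a TPM of 0, and the dashed line marks the detection threshold of 1. Eef1a1 and Pabpc1 stand furthest right, the 5 eIF2B genes sit together near 10 TPM, and of the 7 poly(A)-binding genes only Pabpc1 and Pabpc4 lie right of the line.

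eIF2, eIF2B and the start codon factors came at graded levels. The 3 eIF2 subunit genes expressed here were Eif2s3x (γ subunit, which binds the tRNA and GTP) at 114 and 109 TPM, Eif2s2 (β) at 64.9 and 61.6 TPM and Eif2s1 (α, the subunit that the eIF2 kinases phosphorylate) at 39.8 and 44.4 TPM. Their order was the same in both replicates, and the highest was 2.66 ± 0.300 times the lowest. eIF2B, the exchange factor that phosphorylated eIF2 blocks, was far lower. Its gene for the α subunit, Eif2b1, stood at 14.6 and 17.9 TPM and the catalytic ε subunit gene Eif2b5 at 8.94 and 8.80 TPM. The other eIF2B genes, Eif2b2, Eif2b3 and Eif2b4, lay between 7.89 and 10.05 TPM in every replicate. The subunits other than Eif2b1 do not keep one order between replicates, and the highest of all 5 was 1.94 ± 0.132 times the lowest. The ratio of Eif2b5 to Eif2s1 was 0.225 in replicate 1 and 0.198 in replicate 2. Eif2a and Eif2d, which encode other proteins able to bring initiator tRNA to the ribosome, had 72.1 ± 5.18 and 43.4 ± 0.311 TPM at the gene level.

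The γ subunit has a gene on each sex chromosome, and in these libraries the Y copy had no read. Eif2s3x (chromosome X, 94188707 to 94212862, mm10) had 13167 and 11987 expected counts, and Eif2s3y (chromosome Y, 1010543 to 1028847) had 0 and 0. A count of 0 allows up to 3 counts, or 0.0789 and 0.0833 TPM, a limit that covers counting error only. Eif2s3x was 1448 and 1303 times that limit. This is no lower bound on the ratio, since the deposited upper bounds on TPM for Eif2s3y were 0.501 and 0.527. The deposited posterior mean TPM, which was above 0 for Eif2s3y without a read, was 0.26 and 0.28 for Eif2s3y and 112 and 106 for Eif2s3x, a smaller contrast. The copies can be told apart, since their coding sequences differ at 194 of 1416 aligned bases (86.3% identity). The stretch of coding bases 664 to 753 of the M21 transcripts shows how densely the differences lie; capitals mark the 10 bases that differ.
Eif2s3x: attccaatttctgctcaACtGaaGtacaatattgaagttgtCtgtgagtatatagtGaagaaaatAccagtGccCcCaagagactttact
Eif2s3y: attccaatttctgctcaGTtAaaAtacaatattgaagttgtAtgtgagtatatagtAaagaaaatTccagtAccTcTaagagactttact
The Y genes Ddx3y, Uty and Kdm5d, each with an X partner, were looked up after this value was seen. They had 0, 0 and 0 expected counts in replicate 1 and 5, 1 and 2 in replicate 2. Their X partners Ddx3x (9963 and 9563 counts), Kdm6a (3352 and 3141) and Kdm5c (2744 and 2843) were well counted, and Xist had 1 and 0 counts. The labels' sex and the level of the Y genes thus differ, and the reason was not tested.

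The genes for start codon selection spanned a wide range. Eif1, which keeps the scanning ribosome open until it meets a start codon, had 152 and 138 TPM. Its paralog Eif1b had 9.80 and 8.88 TPM, so Eif1 was 15.5 ± 0.0108 times higher. eIF1A is encoded by an autosomal and an X-linked gene. Eif1a had 25.0 and 26.2 TPM and Eif1ax had 10.8 and 15.03 TPM, and the ranges do not overlap. Eif1ad, a relative of eIF1A, had 8.08 and 9.53 TPM. After start codon recognition, Eif5, the GTPase activator of eIF2, had 96.7 and 98.9 TPM, and Eif5b, the GTPase that joins the subunits, had 37.1 and 41.6 TPM. Eif6, which keeps the large subunit free until it is mature, had 67.6 and 79.4 TPM at the gene level.

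The 12 core subunit genes of the eIF3 scaffold lay between 37.1 ± 1.58 TPM (Eif3f) and 103 ± 9.02 TPM (Eif3e), with a median of 61.9 TPM, and the highest was 2.76 ± 0.125 times the lowest. Eif3c (89.6 and 95.6 TPM) and Eif3a (85.9 and 89.1 TPM), the largest scaffold subunits, came next to Eif3e (109 and 96.1 TPM). The lower end was formed by Eif3m (43.4 and 43.3 TPM), Eif3g (38.6 and 41.4 TPM), the RNA-binding subunit, and Eif3f (38.3 and 36.0 TPM). Neighbours such as Eif3d (69.8 and 79.7 TPM), Eif3h (78.5 and 69.5 TPM) and Eif3k (66.8 and 76.3 TPM) change places between replicates and were not separated by their spread. The loosely bound eIF3j is encoded by a pair of genes below the core. Eif3j2 had 18.4 and 19.5 TPM and Eif3j1 had 6.69 and 7.60 TPM. These genes are 99.4% identical over 2379 bases, so how their reads were divided is uncertain. Among the 71 members, 7 lie on chromosome 15 (9.86%, against 3.56% of nuclear protein-coding genes), 4 of them the eIF3 genes Eif3d, Eif3e, Eif3h and Eif3l. Members lie on 21 chromosomes, and chromosome 15, which holds the most, was not named in advance. An excess was not tested.

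Among the genes grouped here with the cap-binding complex, a scaffold and a helicase were the highest. Eif4g2, which encodes a scaffold that lacks the eIF4E-binding region, had 376 and 387 TPM, and Eif4g1, the main eIF4G, had 104 and 91.3 TPM. Eif4g3 was lowest of the scaffolds at 14.5 and 15.5 TPM. Eif4g2 was 3.93 ± 0.435 times Eif4g1, and Eif4g1 was 6.52 ± 0.868 times Eif4g3. The helicase gene Eif4a1 had 328 and 337 TPM and Eif4a2 had 158 and 180.5 TPM, a ratio of 1.97 ± 0.141. On transcripts annotated as coding alone, Eif4a1 (211 ± 2.20 TPM) stood above Eif4g2 (167 ± 6.05 TPM). Eif4a3, a related helicase of the exon junction complex rather than of initiation, had 46.2 and 55.1 TPM. The helicase's cofactors stood close to each other, with Eif4b at 75.5 ± 3.13 TPM and Eif4h at 67.1 ± 1.24 TPM. Eif4e had 63.4 and 61.1 TPM, 2.01 ± 0.171 times Eif4e2, a homologue linked to repression of mRNAs (29.8 and 32.4 TPM). Eif4e3 and the germline form Eif4e1b had no read in either replicate. Eif4e3 lies within a longer annotated gene on the same strand, Gm20696 (chromosome 6, 99257484 to 99666797), which shares 219 bases with it and had 33.9 and 69.4 counts. Which of these genes the reads came from is uncertain, so no bound is given for Eif4e3.

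The genes for the main eIF4E inhibitors were above that of their target on the TPM scale. Eif4ebp1, the binding protein that mTORC1 phosphorylates to free eIF4E, had 89.1 and 83.3 TPM and Eif4ebp2 had 74.3 and 74.1 TPM, both above Eif4e in each replicate. Eif4ebp3 was near the threshold at 2.09 and 1.13 TPM, from 43.1 and 22.1 expected counts. Eif4enif1, which carries eIF4E into the nucleus and to P-bodies, had 34.9 and 44.9 TPM. The ratio of Eif4ebp1 to Eif4e was 1.38 ± 0.0304 and that of Eif4ebp1 to Eif4ebp2 was 1.16 ± 0.0535. On expected counts, with no correction for length, these ratios were 0.431 and 0.600, so the order of these genes depends on that correction. mRNA levels do not give the amounts of protein or its phosphorylation.

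Elongation was led by a single gene. Eef1a1 (chromosome 9, 78478449 to 78489151) had 4989.7 and 5203 TPM from 189065 and 186465 expected counts, the highest of all nuclear protein-coding genes. Its neuronal and muscle paralog Eef1a2 had no read, so Eef1a1 was at least 107780 and 106611 times higher. Eef2, the translocase, had 324 and 334 TPM, and Eef1a1 was 15.5 ± 0.135 times Eef2. At the gene level, the 4 genes grouped by symbol with the eEF1B exchange complex fell into steps that kept their order in both replicates. Eef1g (γ) had 259 and 268 TPM and Eef1b2 (the catalytic α chain) had 126 and 112 TPM. Eef1d (δ, also an exchange factor) had 68.1 and 58.8 TPM, and Eef1e1, a protein of the multi-synthetase complex, had 20.0 and 18.8 TPM. Counting only transcripts annotated as coding, the order changed, with Eef1d (61.6 and 47.8 TPM) above Eef1b2 (25.5 and 23.3 TPM) in both replicates. Eif5a, the hypusine-bearing factor that helps ribosomes past stalling sequences, had 427 and 443 TPM, 59.0 ± 7.73 times its paralog Eif5a2 (6.62 and 8.27 TPM). Enzymes that modify the elongation factors were low beside Eef1a1 and Eef2. Eef2k, the kinase that inhibits eEF2, had 21.1 ± 8.22 TPM, and the eEF2 methyltransferase gene Eef2kmt had 8.88 ± 0.0636 TPM. The eEF1A lysine methyltransferase genes Eef1akmt1 and Eef1akmt2 had 5.29 ± 0.898 and 5.90 ± 2.45 TPM, and Eef1akmt3 had 0.40 and 0.05 TPM from 34 and 4 counts. Eefsec, which delivers selenocysteine, had 6.31 and 7.34 TPM.

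The poly(A)-binding genes split sharply. Pabpc1, the main cytoplasmic form, had 1132 and 1313 TPM and ranked 8 among nuclear protein-coding genes. Pabpc4, the form first described in activated T cells, had 73.9 and 75.1 TPM, so that Pabpc1 was 16.4 ± 1.55 times higher. Pabpc1l, known from oocytes, had 0 and 4 expected counts (0 and 0.33 TPM). Pabpc2, Pabpc4l, Pabpc5 and Pabpc6 had none. In all, 8 of the 71 members had no read in either replicate, the others being Eef1a2, Eif2s3y, Eif4e1b and Eif4e3, against 47.0% of nuclear protein-coding genes. The limits that 3 counts would set for these 8 lie between 0.0294 TPM (Pabpc6) and 0.113 TPM (Eif4e1b). They cover counting error only and are not a ceiling on the level. For Eif4e3 the limit is no bound, because the origin of the reads at its locus is uncertain. The deposited upper bounds on TPM were higher than these limits for Eif4e1b (0.747 and 0.786), Eif2s3y, Pabpc4l and Pabpc5. They were slightly lower for Eef1a2, Eif4e3, Pabpc2 and Pabpc6.

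How much of a gene's level came from transcripts annotated as coding differed strongly among members. The coding share of TPM had a median of 99.2% over the 60 detected members whose transcripts could all be matched (93.5% over 8505 genes), and 30 of them were at 99% or more (50%, against 42.9%). On the mean of both replicates, 8 members (13.3%) were below 50%, beside 14.2% of nuclear protein-coding genes. A low share was thus about as common as elsewhere. Eif4a2 had the lowest, 17.2% and 16.6%, with 72.9% and 76.4% in entries with a retained intron. For Eef1b2 the coding share was 20.2% and 20.7%, and 54.8% and 56.8% lay in transcripts annotated as targets of nonsense-mediated decay, led by Eef1b2-205. The others were Eif6 (22.0% ± 1.88), Eef1g (31.5% ± 1.71), Eif2a (41.5% ± 1.93), Eif4g2 (43.9% ± 0.692), Eif1ax (47.8% ± 14.99) and Eif2d (48.9% ± 5.34). Replicates were close for all of these but Eif1ax (58.4% and 37.2%) and Eif2d (52.7% and 45.1%), which were below 50% in replicate 2 only.

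These shares are per length, and short entries weigh more in TPM than in reads. Eif4g2-210, a retained-intron entry of 771 bases, held 37.5% and 37.4% of the gene's TPM but 10.5% and 10.3% of its counts. By expected counts 4 of the 60 members were below 50%, and the coding share was 86.6% for Eif4g2, 93.5% for Eif1ax, 51.5% for Eif6 and 50.5% for Eef1g. It remained low for Eif4a2 (39.7%), Eef1b2 (37.7%), Eif2a (40.2%) and Eif2d (48.1%). Eef1a1 had 58.1% ± 3.15 of its TPM and 82.5% ± 2.33 of its counts in coding transcripts, the rest mainly in Eef1a1-204, a processed transcript of 505 bases (31.2% and 31.8% of TPM). The leading transcript was the same in both replicates for 55 of 60 members. It was coding in both for 53, in neither for 4 (Eef1b2, Eif2a, Eif6 and Pabpc4) and in 1 replicate only for 3 (Eef2kmt, Eif1ax and Eif2d). Total RNA holds unspliced RNA as well as mRNA, and its part in these shares was not tested.

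**Figure D2:**
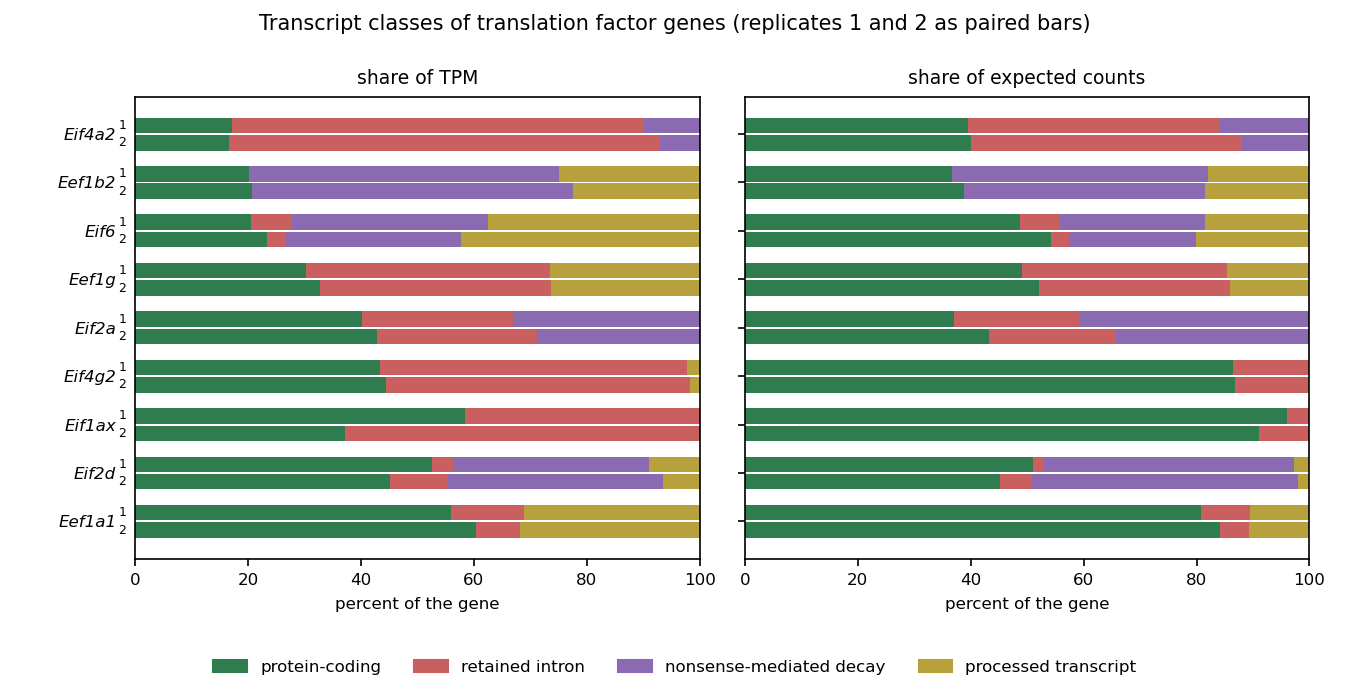
Share of each gene's TPM (left) and expected counts (right), in percent, by annotated transcript class. Shown are Eef1a1 and the 8 members under 50% coding TPM on the mean of both replicates. Bars marked 1 and 2 are the replicates. The coding part of Eif4g2 and Eif1ax is small by TPM and large by counts, while that of Eif4a2 and Eef1b2 stays below 50% on both scales.

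Counting only coding transcripts, an alternative chosen after these shares were seen, changed some ratios between related factors and left others. Eif4a1 over Eif4a2 went from 1.97 to 7.39 ± 0.411, since Eif4a2 kept 28.6 ± 1.89 TPM and Eif4a1 211 ± 2.20 TPM. Eef1a1 over Eef2 went from 15.5 to 9.01 ± 0.567, and Eef1a1 remained the highest gene at 2965 ± 248 coding TPM. Eif4g2 over Eif4g1 went from 3.93 to 2.16 ± 0.286, Eif1 over Eif1b from 15.5 to 11.4 ± 0.247, and Pabpc1 over Pabpc4 from 16.4 to 21.1 ± 1.61. Eif1ax over Eif1a went from 0.504 ± 0.0978 to 0.233 ± 0.0288, and Eif3j1 over Eif3j2 from 0.376 ± 0.0179 to 0.248 ± 0.0114. The ratios Eif4e over Eif4e2, Eif4ebp1 over Eif4e, Eif4ebp1 over Eif4ebp2, Eif5a over Eif5a2 and Eif2b5 over Eif2s1 moved by less than their spread, as did Eif4a1 over Eif4a3 (6.61 ± 0.691 and 6.51 ± 0.747) and Eif4g1 over Eif4g3. The first gene of the pair was the higher in 11 of 14 measured pairs on either scale, and no pair changed order. The count of 11 depends on which gene of each pair was written first.

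**Figure D3:**
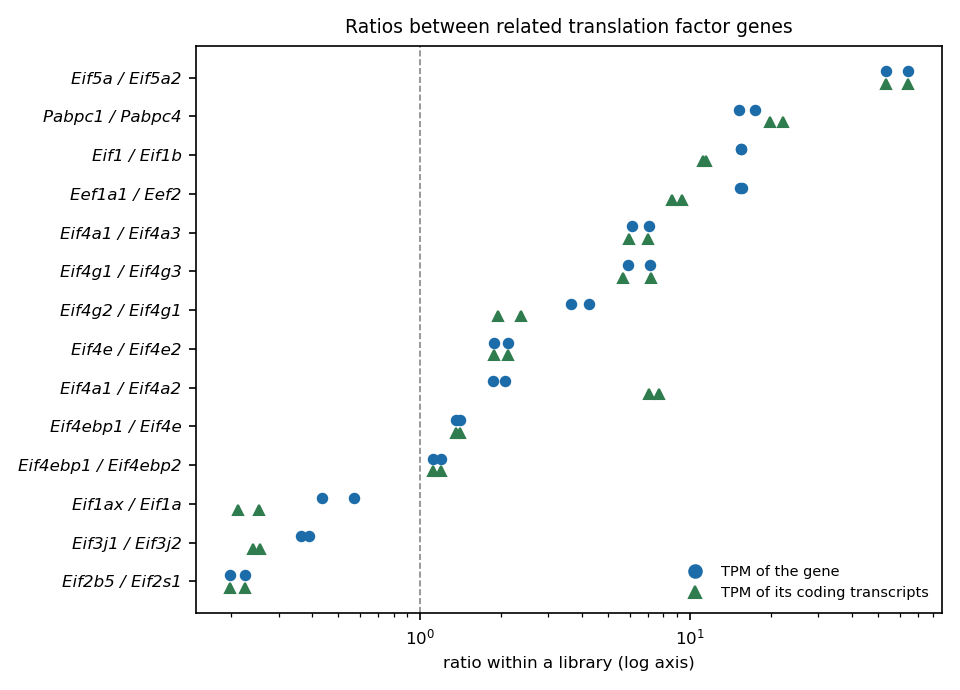
Ratio of the first to the second gene of 14 pairs within each library, on a log axis; circles use the TPM of the whole gene and triangles only its coding transcripts, with 1 symbol per replicate. The Eif4a1 over Eif4a2 ratio moves furthest, from about 1.97 to 7.39, and no pair crosses 1.

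The replicates gave like levels for nearly all members. With log2 ratios of replicate 2 over replicate 1 on TPM + 0.1, a pseudocount that shrinks the ratios of low genes, 0 of the 61 members differed 2-fold or more, against 1.95% of the 8808 nuclear protein-coding genes whose mean TPM reached 1. Within 1.25-fold were 55 of 61 (90.2%, against 76.3%). At 200 or more mean counts these shares were 94.8% of 58 members and 82.4% of 7236 genes. Most members lie above the median gene in level, and a floor of 200 counts does not match the 2 sets for that. Closer agreement as a trait of the members therefore cannot be read from these shares. The median log2 ratio was 0.05 (SD 0.25 over members) and that of all 8808 genes 0.03 (SD 0.37). The intervals deposited with the TPM values, which cover estimation within 1 library, did not overlap for 27 of 61 members (44.3%, against 24.5%), 19 higher in replicate 2 and 8 in replicate 1. High counts narrow these intervals, so that even Eef1a1, with a log2 ratio of 0.06, was among them.

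The lowest ratios belonged to genes with few counts. Eef1akmt2 had 7.63 and 4.16 TPM, a log2 ratio of -0.86, from 214 and 102 counts, and Eef1akmt1 had 5.92 and 4.65 TPM (-0.34). Eif4ebp3 had a ratio of -0.83. Next came Eef1d (-0.21), Eif4g1 (-0.18) and Eif3e (-0.18), which were well counted. The highest was Eef2k, with 15.3 and 26.9 TPM and a log2 ratio of 0.81. On TMM-scaled counts (1841 and 2048 reads before scaling) the Eef2k ratio was 0.20. Its 203-base coding entry Eef2k-209 held 2.66% and 31.7% of the gene's TPM on 1.15 and 22.1 counts. Eif1ax also differed between scales, with a log2 ratio of 0.47 on TPM and -0.13 on counts (1099 and 972 reads), while its 416-base retained-intron entry Eif1ax-202 held 44.2 and 86.7 counts. Eif4enif1 (0.37 on TPM, 0.14 on counts), Eif5a2 (0.32 and 0.29) and Eif2b1 (0.29 and 0.14) followed. The sign of the ratio differed between TPM and counts for 7 of 61 members (11.5%), Eif1ax and Pabpc1 among them, against 17.3% of genes. Pabpc1 had a log2 ratio of 0.21 on TPM and -0.05 on counts, and its processed entry Pabpc1-207 held 12.3% and 24.7% of its TPM.

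**Figure D4:**
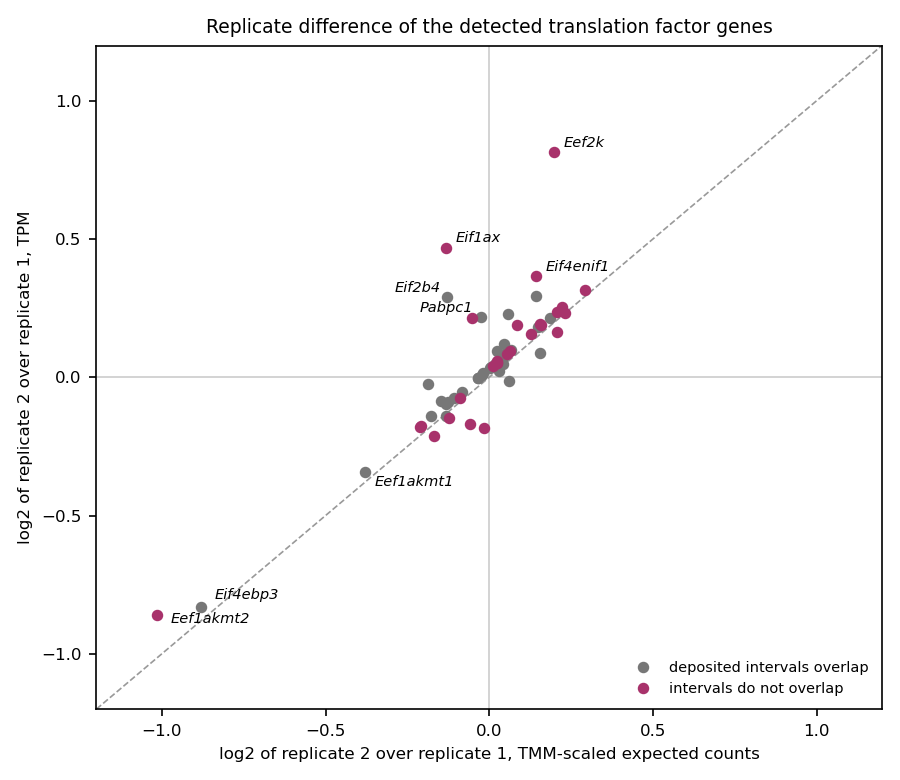
Log2 of replicate 2 over replicate 1 for the 61 detected members, on TMM-scaled expected counts (horizontal) and on TPM (vertical); the dashed line marks equality, and colour shows whether the deposited intervals overlap. On TPM 55 of the 61 lie within 1.25-fold of equality; Eef2k and Eif1ax stand above it, and Eef1akmt2 and Eif4ebp3 lie far down along it.

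Some members share long stretches with other annotated genes, and their reads may be hard to place. Of the 71, 28 matched another gene over 200 bases or more at 95% identity or above. In 22 of them that gene lies at another locus (12 at 98% or above), and in the other 6 only a gene overlapping the member itself was found. The share among all genes was not measured. For 19 members the copies include pseudogenes, 51 in all in M21. The tables list 34 of these, and 11 were detected. Eef1a1 had the most abundant, Gm13456 on chromosome 2 (96.8% over 1390 bases), with 93.4 and 93.7 TPM, which is 1.87% and 1.80% of Eef1a1. Eif2s3x matches Gm2223, also on chromosome X, without a difference over 1350 bases. Gm2223 had 14.1 and 17.3 TPM, or 12.4% and 15.9% of the level of Eif2s3x, and the split between these is uncertain. For Eif3e, the pseudogene Eif3s6-ps2 was listed at 55.9 and 51.3 TPM from only 187 and 158 counts. Eif1 matches part of the protein-coding gene Emd on chromosome X (96.5% over 662 bases), which had 40.8 and 38.3 TPM.

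The pair Eif4a1 and Eif4a-ps4 (chromosome 1) shows how little separates some copies: 1 base differs in the 1218 aligned bases (99.9% identity), at the capital letter in this stretch of aligned bases 504 to 563.
Eif4a1: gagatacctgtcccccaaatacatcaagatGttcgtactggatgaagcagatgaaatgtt
Eif4a-ps4: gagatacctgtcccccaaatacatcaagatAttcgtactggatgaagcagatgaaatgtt
Eif4a-ps4 was given 478 and 423 expected counts (13.2 and 12.3 TPM), 4.02% and 3.66% of Eif4a1. Overlapping genes on the opposite strand share exonic sequence with Eif5b (Rev1, 421 bases), Eif1ad (Banf1, 428 bases), Eef2kmt (Alg1, 474 bases), Eif3j1 (Spg11, 541 bases) and Eefsec (Gm44264, 311 bases). Eif4ebp3 lies within AC115631.1 on the same strand and shares 504 bases with it. Whether the counting used strand is not given in the sources used here, so the low values of Eif1ad and Eef2kmt, next to Banf1 at 135 and 126 TPM and Alg1 at 2.93 and 3.89 TPM, are uncertain.

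mRNAs of many translation factors are known for a 5′ terminal run of pyrimidines, through which mTORC1 and LARP1 control their translation. RefSeq promoters (GRCm38.p6, 250 bases before to 50 after each start) were found for 51 members in 65 entries. A run was counted where a C followed by C or T, 5 or more letters in all, began within 10 bases of the annotated start on the gene's strand, a search chosen after values were seen. Such a run was found in 29.2% of the members' entries and in 30.7% of all 32851 entries, so it was no more common among the members' annotated entries. The shares count entries rather than genes, and Eif5a and Eif4enif1 have several each. Members without an entry, among them Pabpc1, Eif4g2 and Eef1g, are not covered. A run at a start other than the annotated positions would be missed. Whether the members' mRNAs carry such runs more often was therefore not tested. Detected members with a run had a median of 42.7 TPM (14 genes) and those without had 50.7 TPM (33 genes), while over all detected genes the medians were 9.86 TPM with a run and 9.70 TPM without. Windows of 30 bases around the start are shown with the longest run in capitals. They come from the 2 highest members found with a run, among those with an entry, and from an eIF3 gene. The windows lie on chromosome 9 (78481710 to 78481739, minus strand), chromosome X (94212637 to 94212666, minus strand) and chromosome 15 (79075208 to 79075237, plus strand).
Eef1a1: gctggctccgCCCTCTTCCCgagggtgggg
Eif2s3x: ctgccgagcattttCCTTTTCTCTCCgagc
Eif3l: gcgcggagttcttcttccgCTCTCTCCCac
The capital runs begin 5 bases before (Eef1a1), 1 base before (Eif2s3x) and 4 bases after (Eif3l) the annotated start. Part of the Eef1a1 and Eif2s3x runs thus lies upstream of the annotated transcript. The Eif3l window holds a second, shorter run, left in lower case. These letters describe the annotated window; no start site was mapped in these data.

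Genes that act with the translation factors were nearly all expressed as well. Of 40 such genes, 39 were detected, against 40.2% of all nuclear protein-coding genes. Between replicates 0 differed 2-fold or more, against 1.95% of the nuclear protein-coding genes whose mean TPM reached 1. The 39 had a median of 11.7 TPM, below that of the members and nearer to the 9.76 TPM of all detected nuclear protein-coding genes. Of 13 mTORC1 and cap regulators, the highest was Larp1 (52.3 and 53.1 TPM), and the lowest was Mlst8, an mTOR partner (1.45 and 2.11 TPM). Mtor itself had 7.13 and 7.85 TPM. The poly(A)-binding partners ran from Paip2, an inhibitor of PABP (76.2 and 69.7 TPM), to Paip2b (1.84 and 1.42 TPM). Among helicases and their like, Ddx3x had 78.4 and 85.6 TPM and Dhx29 5.57 and 5.66 TPM. For reinitiation, Denr had 8.95 and 13.1 TPM and Mcts2 4.56 and 6.83 TPM. Termination was led by Gspt1 (eRF3) at 150.1 and 154 TPM, and its paralog Gspt2 had no read. The hypusine enzymes that activate eIF5A stood at 10.6 ± 0.608 (Dhps) and 3.51 ± 1.08 TPM (Dohh), against 435 ± 11.4 TPM for Eif5a. Enzymes for diphthamide, the modified histidine of eEF2, ran from 2.04 ± 0.134 (Dph1) to 23.2 ± 4.72 TPM (Dph3).

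Introns of 9 members hold 18 annotated small nucleolar RNAs, which guide modification of ribosomal RNA. Of these, 9 had counts in both replicates, and 4 are too short to have an effective length. The Eif4a1 intron gene Gm22988 had 762 and 517 expected counts, and Snora81 in Eif4a2 had 52.6 and 38.9. The labels give a size range above 200 without a unit, and the 18 are 64 to 178 bases long, so their levels were not compared with those of the hosts.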

How the data were processed

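Members and gene lists were chosen with earlier results of these data known. Per the labels, total RNA of 1 group with 2 biological replicates was sequenced, and per the file headers the assembly was mm10 and the annotation GENCODE M4; the aligner, quantifier and strand setting were not given in the sources used here. As deposited by the authors, expected counts are unnormalized estimates of the reads of a gene or transcript. The deposited TPM values were scaled by the authors over all listed features, and FPKM values deposited by the authors served as an alternative. Each transcript's percent of its gene's TPM was also deposited. Interval bounds deposited by the authors (signal on the posterior TPM scale) were compared between replicates.

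Symbols, gene types and coordinates came from GENCODE M21 by identifier without version (42462 of 43346 Ensembl genes matched). Of the members' 350 transcripts, 6 were unmatched, all in Eif2b4, which was left out of coding shares. Detection meant at least 1 TPM in each replicate; log2 ratios used a pseudocount of 0.1. TMM factors (edgeR 4.0.16) and DESeq2 1.42.0 size factors were computed in R 4.3.3 from counts rounded to whole numbers. They were applied to the unrounded counts. No test was run. Copies were found with BLAST 2.17.0 between the leading coding transcript and all M21 transcripts, without protein sequences. Python 3.11.15, pandas 2.3.3, numpy 2.4.6 and matplotlib 3.10.9 were used. Named were the 2 highest and 2 lowest members of each complex, all genes of 17 pairs, all members under a TPM of 1, the 5 highest and 5 lowest log2 ratios among members whose mean TPM reached 5, and the highest and lowest gene of each pathway group; other names were picked with their values in view. The alternatives changed thresholds, pseudocount, filter, unit, scaling, transcript set and identity, and left out each replicate. The labels call the 2 libraries biological replicates, so SDs rest on 2 values, and they record no molecular identifiers.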

Additional observations from a re-analysis of the deposited data

How the results depend on the processing

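Detection of members ranged from 58 at a TPM threshold of 5 to 61. On coding transcripts it was 60, because Eif2b4 could not be assessed there. No member was 2-fold apart with a pseudocount of 1, FPKM, posterior mean TPM, rescaled TPM or coding transcripts, but 2 were without a filter on low values (Eef1akmt3 and Pabpc1l), and 1 was with counts scaled by edgeR TMM or by DESeq2 size factors (Eef1akmt2). The median member level, 50.4 TPM averaged over each replicate's median, became 221 when rescaled over nuclear protein-coding genes and 39.5 on coding transcripts. The spread of the 12 eIF3 core genes went from 2.76 to 3.39 on coding transcripts, as Eif3f kept 30.2 TPM. The members' share of TPM was 1.08% of all features and 4.72% of nuclear protein-coding genes. The median coding share, averaged in the same way, was 99.3% of TPM and 99.6% of counts. Members matching another gene numbered 28 at 95% identity and 18 at 98%, and without genes overlapping the member 22 and 12. The ratio of Eif4ebp1 to Eif4ebp2 turned to 0.600 and that to Eif4e to 0.431 on expected counts. That unit also moved Eif5a over Eif5a2 from 59.0 to 14.1, Eef1a1 over Eef2 from 15.5 to 5.97, Eif4e over Eif4e2 from 2.01 to 4.41, Eif4g2 over Eif4g1 from 3.93 to 2.24 and Eif3j1 over Eif3j2 from 0.376 to 0.609, and 9 pairs in place of 11 then had the first gene higher. Leaving out a replicate gave 46.8 to 54.0 TPM for the median level, 2.67 to 2.85 for the eIF3 spread and 1.05% to 1.10% for the share. Both replicates alone gave 61 detected members and 11 pairs with the first gene higher. No paired analysis was possible because the series has 1 group. Genes under about 200 counts, such as Eef1akmt1 and Eif4ebp3, are limited by depth.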
